A study of Mus musculus with 6 samples.

Results

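The 10 circadian clock genes Per1, Per2, Per3, Cry1, Cry2, Dbp, Nr1d1, Nr1d2, Arntl and Clock were examined in frontal cortex of GFAP-IL6 and wild-type (WT) mice. They were taken by symbol from the 33000 genes of a table of read counts, and all 10 had a row and passed the filter on low counts. The libraries came from 3 homozygous GFAP-IL6 mice and 3 WT mice, all C57BL/6, 3 months old and prepared with the TruSeq mRNA protocol. In the GFAP-IL6 line a transgene under the Gfap promoter drives the cytokine IL6 in astrocytes. The hour of day at which the mice were killed and the light cycle are not given in the sources used here, so a difference in hour between the groups and an effect of the genotype cannot be told apart. P-values set the difference between the groups against the spread between libraries, each from a different mouse.

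The clock of mammalian cells is a loop of transcription and repression. CLOCK and BMAL1, the product of Arntl, bind E-box sequences as a pair and switch on the Per, Cry, Nr1d and Dbp genes. The PER and CRY proteins then repress that pair, the NR1D proteins (REV-ERB alpha and beta) repress Arntl through sequences called RORE, and DBP activates further genes through D-box sequences. In mouse tissues these transcripts peak at different hours, with Arntl near the end of the night, Nr1d1 near midday, Dbp and the Per genes from the afternoon to dusk, and Cry1 during the night. The relation between their levels in a library thus depends on the hour as well as on the state of the tissue.

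The promoter sequences that carry these motifs are shown because they place the members in the loop. RefSeq promoters on GRCm38.p6, the assembly also called mm10, were matched by symbol to 9 of the 10 genes, with 13 windows of 300 bases that run from 250 bases before a start site to 50 after it. Per2 had no entry. The windows were searched on both strands for the E-box CACGTG, its variant the E′-box CACGTT, the D-box TTATGTAA or TTACGTAA, the RORE core TAGGTCA and the cyclic AMP response element TGACGTCA. In the sequences below the capitals mark the motif on either strand.
Per1, E-box, chr11:69098771-69098800, plus strand: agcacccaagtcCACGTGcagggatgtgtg
Cry1, E-box, chr10:85185097-85185126, minus strand: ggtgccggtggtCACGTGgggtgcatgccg
Cry1, E′-box, chr10:85185116-85185145, minus strand: acacacttcagaAACGTGaggtgccggtgg
Cry2, E′-box, chr2:92434218-92434247, minus strand: acacatggtgggAACGTGagggggcggagc
Nr1d1, E′-box, chr11:98775388-98775417, minus strand: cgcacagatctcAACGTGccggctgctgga
Per3, both D-boxes, chr4:151044804-151044882, minus strand: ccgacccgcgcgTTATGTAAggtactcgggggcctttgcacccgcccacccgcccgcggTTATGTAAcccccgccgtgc
Arntl, RORE core, chr7:113207530-113207559, plus strand: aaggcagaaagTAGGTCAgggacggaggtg

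The E-box of Per1 starts 166 bases before its first start site and that of Cry1 60 bases before. The 2 D-boxes of Per3 lie 205 and 158 bases before the start, and the RORE core of Arntl lies 30 bases after the start of the second of its windows. Among all 32851 windows of the RefSeq table, 7.15% held the E-box, 4.68% the E′-box, 1.06% a D-box, 2.61% the RORE core and 1.79% the cyclic AMP response element, and 0.0244% held at least 2 D-boxes. None of these motifs was found in the windows of Dbp, Nr1d2 or Clock, and the cyclic AMP response element in none of the 13, which says only that these letters are not in these windows.

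The libraries held between 7559524 and 16877001 counts, and each GFAP-IL6 library was shallower than each WT library. Il6 had 0, 2 and 0 counts in WT replicates 1, 2 and 3 and 12, 10 and 24 in the GFAP-IL6 replicates. Gfap rose from 94.5 ± 24.8 to 678 ± 179 CPM (edgeR, adjusted p of 5.49e-06), where CPM is the read count scaled to library size with TMM factors. Here and below, means are given ± SD over the 3 mice of a group. The 6 general and excitatory neuronal markers summed to between 10649 and 12243 CPM in all libraries. Of the 6 libraries, 2 stood apart in markers of tissue outside the cortex. The sum of 6 striatal genes was 285 CPM in WT replicate 2 and 131 to 171 in the others, and that of 4 choroid plexus genes was 594 CPM in WT replicate 3 and 3.75 to 53.7 in the others. Each fold change below was therefore also computed without each library.

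Of the 10 clock genes, 1 passed the test, Dbp, and it was lower in GFAP-IL6. By edgeR, 1 of the 10 genes had an adjusted p under 0.05, beside 2.86% of the 15341 genes tested and 0.209% for genes called as lower. None of the 10 also had an absolute log2 fold change over 1, the threshold of the study, which 1.38% of all genes passed. At an unadjusted p under 0.05 there were 4 of 10 (Per1, Per2, Per3 and Dbp), beside 20.5% of all genes. The groups did not overlap in CPM for 4 of 10 (Per2, Per3, Dbp and Nr1d2), beside 26.5% of all genes. The median log2 fold change was 0.05 over the 10 genes and 0.00 over all genes tested.

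**Figure D1:**
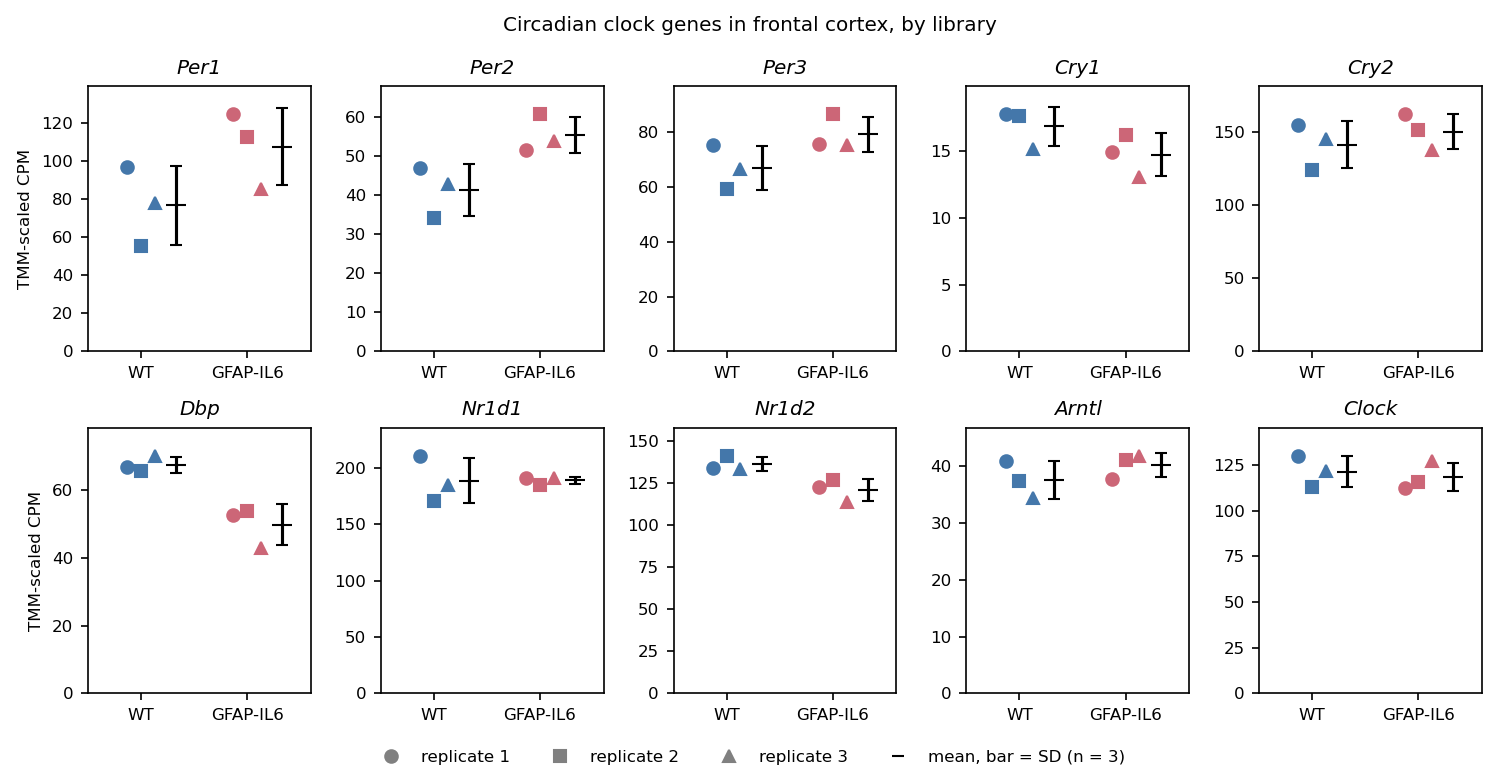
TMM-scaled CPM (linear axis from 0) of each clock gene in the 3 WT and 3 GFAP-IL6 libraries. Symbols mark the replicate number, which the labels do not describe as a pairing of mice, and the bar gives mean and SD. Dbp lies between 65.5 and 69.9 CPM in WT and between 42.9 and 53.9 in GFAP-IL6, while Nr1d1, Arntl and Clock overlap between groups.

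Dbp (ENSMUSG00000059824.8, chromosome 7, 45705088 to 45710203, plus strand) encodes a transcription factor of the PAR bZIP family, which binds D-boxes and carries the rhythm to other genes. Its level was 66.9, 65.5 and 69.9 CPM in WT replicates 1 to 3 and 52.7, 53.9 and 42.9 CPM in the GFAP-IL6 replicates. All 3 GFAP-IL6 mice were below all 3 WT mice, and GFAP-IL6 replicate 3 was lowest. Dbp fell by 26.1%, a log2 fold change of -0.44 ± 0.10 (SE; 95% interval -0.64 to -0.23) with an adjusted p of 0.0262 by edgeR. DESeq2 gave -0.44 with an adjusted p of 0.00835 and limma-voom -0.44 with 0.0297.

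The call for Dbp depended on which libraries were in the fit. With 1 library left out, its log2 fold change was between -0.49 and -0.34 in the 6 fits, and only 2 of them called it. The adjusted p by edgeR was 0.154 without GFAP-IL6 replicate 3, 0.0917 without WT replicate 3, 0.0697 without GFAP-IL6 replicate 1 and 0.0506 without GFAP-IL6 replicate 2. Over all genes those fits called 187, 346, 304 and 282, in the same order, against 439 with all libraries. The adjusted p of Dbp was 0.0292 without WT replicate 1 and 0.00939 without WT replicate 2, the library with the high striatal markers. These fits called 1061 and 508 genes.

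**Figure D2:**
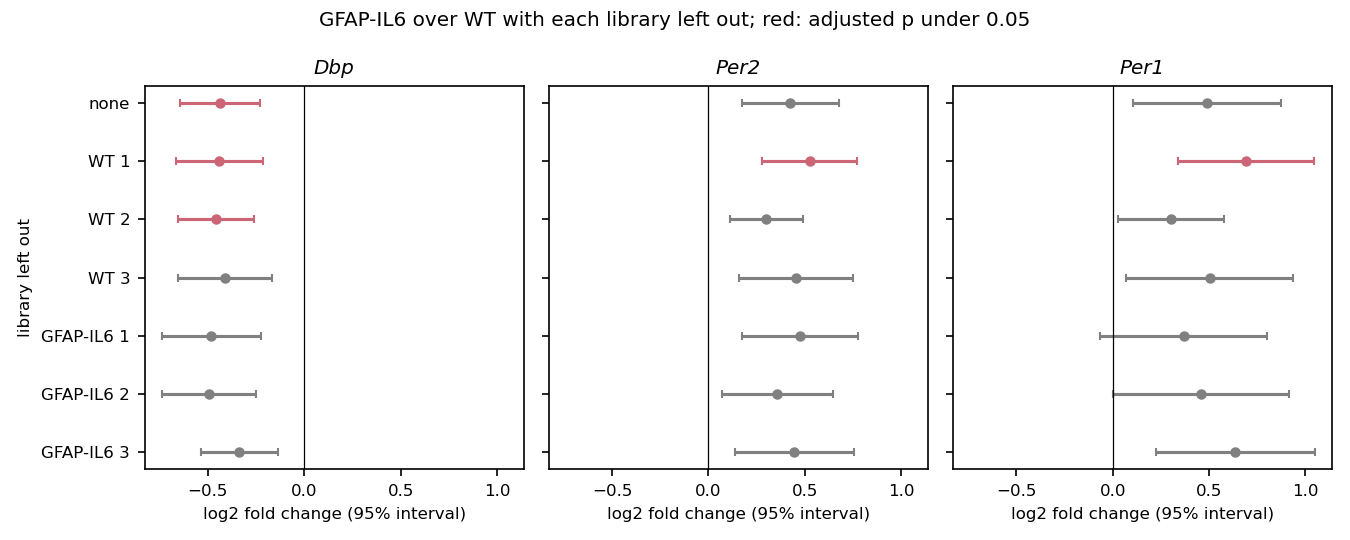
Log2 fold change of GFAP-IL6 over WT with 95% interval by edgeR for Dbp, Per2 and Per1, with all libraries (none left out) and without each library. Red marks an adjusted p under 0.05. Dbp is below 0 in every fit shown and red in 3 of the 7, while the estimates of Per2 and Per1 are above 0 in every fit and red only without WT replicate 1.

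Exons of Dbp overlap those of Sphk2, a sphingosine kinase gene on the opposite strand, over 539 of the 2993 exon bases (18.0%) that GENCODE M21 gives Dbp. The deposited length of Dbp is 1789 bases, so the shared part of the bases counted may differ. The sources used here do not state whether counting used the strand, so reads of the shared part cannot be told apart. Sphk2 was at 57.0 ± 1.78 CPM in WT and 49.8 ± 2.04 in GFAP-IL6, with a log2 fold change of -0.19 and an adjusted p of 0.200 by edgeR. The part of this overlap in the value of Dbp was not tested.

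Tef and Hlf, the relatives of Dbp in the PAR bZIP family, were compared after their values were seen. Tef was at 377, 367 and 365 CPM in WT and at 373, 376 and 328 in GFAP-IL6. Hlf was at 283, 276 and 263 CPM in WT and at 261, 288 and 227 in GFAP-IL6. Both overlapped between groups, with log2 fold changes of -0.04 (95% interval -0.22 to 0.13) for Tef and -0.09 (-0.29 to 0.12) for Hlf. Within each library, the log2 ratio of Dbp to Tef per base of gene length was -1.10, -1.09 and -0.99 in WT and -1.43, -1.40 and -1.54 in GFAP-IL6. Dbp was thus lower relative to Tef in every GFAP-IL6 mouse than in any WT mouse, and the same held relative to Hlf, with means of -0.36 ± 0.09 and -0.72 ± 0.06. These ratios were chosen for their difference and are given with no test, and Dbp alone already separated the groups in CPM.

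The Per genes, which encode the repressor partners of CRY and are targets of CLOCK and BMAL1 like Dbp, had estimates of the opposite sign. Per1 (ENSMUSG00000020893.15, chromosome 11, 69095217 to 69109960, plus strand) was at 96.9, 55.5 and 77.8 CPM in WT and at 124, 113 and 85.1 in GFAP-IL6. The highest WT mouse and the lowest GFAP-IL6 mouse overlapped. By edgeR, Per1 had a log2 fold change of 0.49 ± 0.18 (SE; 95% interval 0.11 to 0.87) and an adjusted p of 0.155.

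Per2 (ENSMUSG00000055866.9, chromosome 1, 91415982 to 91459324, minus strand) was at 47.1, 34.2 and 42.9 CPM in WT and at 51.7, 60.7 and 54.0 in GFAP-IL6. The groups did not overlap, and WT replicate 2 was lowest. By edgeR, Per2 had a log2 fold change of 0.42 ± 0.12 (SE; 95% interval 0.17 to 0.68) and an adjusted p of 0.0765. Per3 (ENSMUSG00000028957.10, chromosome 4, 151003652 to 151044665, minus strand) was at 75.2, 59.3 and 66.5 CPM in WT and at 75.7, 86.5 and 75.5 in GFAP-IL6. WT replicate 1 lay within 1 CPM of the 2 lower GFAP-IL6 mice. By edgeR, Per3 had a log2 fold change of 0.24 ± 0.10 (SE; 95% interval 0.03 to 0.46) and an adjusted p of 0.201.

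None of the 3 Per genes passed the test with all libraries, and their values moved with the mouse left out, in either group. Without WT replicate 1, edgeR called Per1 (log2 fold change 0.69, adjusted p of 0.0284) and Per2 (0.52, adjusted p of 0.0215). That fit called 1061 of 15524 genes, against 439 of 15341 with all libraries. WT replicate 2, the library with the high striatal markers, was lowest for all 3 Per genes. Without it, edgeR gave 0.30 for Per1 (adjusted p of 0.259), 0.30 for Per2 (adjusted p of 0.0922) and 0.16 for Per3 (95% interval -0.02 to 0.34). Per1 was at 0.37 (-0.07 to 0.80) without GFAP-IL6 replicate 1 and at 0.64 (0.22 to 1.05) without GFAP-IL6 replicate 3. Per3 was at 0.18 (-0.07 to 0.42) without GFAP-IL6 replicate 2. Per2 was between 0.36 and 0.47 in these 3 fits. Without the filter on low counts, edgeR called Per1 (adjusted p of 0.00393) and Per2 (adjusted p of 0.00573), in a fit that called 1154 genes.

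Per1 and Per2 are also known to respond to neuronal activity and to glucocorticoids, so lists for both were measured beside them. Of 6 immediate early genes, which rise after neuronal activity, all 6 had positive log2 fold changes and 3 (Arc, Junb and Nr4a1) were called as higher by edgeR. Among all 15341 genes tested, 7573 had positive log2 fold changes and 407 were called as higher. The summed level of the 6 immediate early genes was 541, 393 and 515 CPM in WT replicates 1 to 3 and 836, 804 and 643 in the GFAP-IL6 replicates. Of 7 glucocorticoid-responsive genes, 0 were called by edgeR, 1 (Zbtb16) had an unadjusted p under 0.05, and the summed level was 257 to 282 CPM in WT and 255 to 322 in GFAP-IL6. The part of either in the values of the Per genes was not tested.

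The cryptochromes, the other repressors of the loop, gave no call. Cry1 (ENSMUSG00000020038.9, chromosome 10, 85131700 to 85185064, minus strand) was at 17.8, 17.7 and 15.2 CPM in WT and at 15.0, 16.2 and 13.1 in GFAP-IL6, with overlapping groups. It was the gene with the fewest reads, at 117 counts in GFAP-IL6 replicate 3. The log2 fold change of Cry1 was -0.19 ± 0.12 (SE; 95% interval -0.46 to 0.08). Cry2 (ENSMUSG00000068742.9, chromosome 2, 92403646 to 92434043, minus strand) was at 155, 124 and 145 CPM in WT and at 162, 152 and 138 in GFAP-IL6, again with overlap. The log2 fold change of Cry2 was 0.09 ± 0.10 (SE; 95% interval -0.12 to 0.31).

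Nr1d1 and Nr1d2, the repressors of Arntl, did not pass the test. Nr1d1 (ENSMUSG00000020889.11, chromosome 11, 98767932 to 98775333, minus strand) was at 210, 171 and 185 CPM in WT and at 191, 185 and 191 in GFAP-IL6. The GFAP-IL6 mice lay inside the range of WT, and the log2 fold change of Nr1d1 was 0.00 ± 0.09 (SE; 95% interval -0.19 to 0.20). Nr1d1 shares 263 of its 3077 exon bases in GENCODE M21 with Thra, the thyroid hormone receptor alpha gene on the opposite strand. The deposited length of Nr1d1 is 2721 bases. Thra was at 601 ± 25.6 CPM in WT and 614 ± 25.5 in GFAP-IL6, and the part of the overlap in the level of Nr1d1 was not tested.

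Nr1d2 (ENSMUSG00000021775.10, chromosome 14, 18204054 to 18239127, minus strand) was at 134, 141 and 133 CPM in WT and at 122, 127 and 113 in GFAP-IL6. All 3 GFAP-IL6 mice were below all WT mice, by a smaller step than for Dbp. By edgeR, Nr1d2 had a log2 fold change of -0.17 ± 0.08 (SE; 95% interval -0.34 to 0.00) and an adjusted p of 0.246.

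The activators of the loop overlapped between groups. Arntl (ENSMUSG00000055116.7, chromosome 7, 113207465 to 113314126, plus strand) was at 40.9, 37.4 and 34.3 CPM in WT and at 37.7, 41.2 and 41.8 in GFAP-IL6. Arntl had a log2 fold change of 0.10 ± 0.09 (SE; 95% interval -0.10 to 0.30). Clock (ENSMUSG00000029238.9, chromosome 5, 76209868 to 76304792, minus strand) was at 130, 113 and 122 CPM in WT and at 113, 116 and 127 in GFAP-IL6. For Clock it was -0.03 ± 0.09 (SE; 95% interval -0.22 to 0.15).

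**Figure D3:**
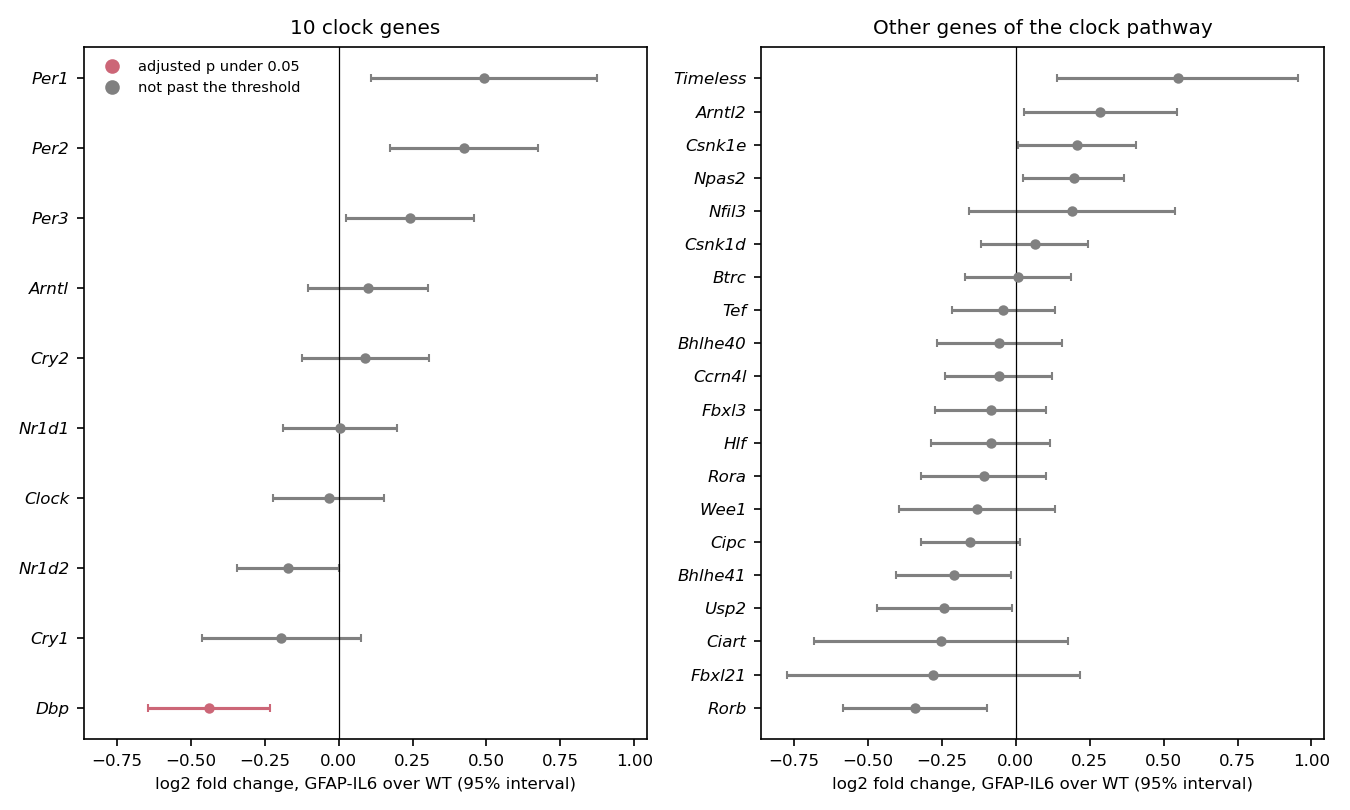
Log2 fold change of GFAP-IL6 over WT with 95% interval by edgeR for the 10 clock genes and for other genes of the clock pathway, each panel in order of the estimate. Dbp at -0.44 is the gene past an adjusted p of 0.05, and the 3 Per genes have the highest estimates of the 10.

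The phase relation was then described as the log2 ratio of each gene to Arntl in the same library, in counts per base of gene length, which does not depend on scaling between libraries. For the Nr1d, Dbp and Per genes these ratios set day and dusk genes against a gene that peaks near the end of the night. Of the 9 ratios, 4 did not overlap between groups (Dbp, Nr1d2, Cry1 and Per2), beside 19.3% for the ratio of any tested gene to Arntl. An exact permutation test (two-sided) gave p = 0.1 for each of the 4, the lowest value possible with 3 mice a group, and 0.225 after Benjamini-Hochberg adjustment over the 9 ratios.

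The ratio of Dbp to Arntl was 1.41, 1.51 and 1.72 in WT and 1.18, 1.09 and 0.74 in GFAP-IL6 on the log2 scale. Dbp thus stood above Arntl in all mice, by less in each GFAP-IL6 mouse. The ratio of Nr1d2 to Arntl was 1.03, 1.23 and 1.27 in WT and 1.01, 0.94 and 0.76 in GFAP-IL6, with the groups nearly touching. That of Cry1 to Arntl was -1.26, -1.14 and -1.23 in WT and -1.39, -1.39 and -1.73 in GFAP-IL6, lower in each GFAP-IL6 mouse. The ratio of Per2 moved the other way, with -0.80, -1.14 and -0.69 in WT and -0.55, -0.45 and -0.63 in GFAP-IL6. Per2 was higher relative to Arntl in each GFAP-IL6 mouse than in any WT mouse. The sign of this ratio depends on the gene lengths, and the deposited 2904 bases of Arntl differ from its 7523 exon bases in GENCODE M21. The difference between the groups does not depend on these lengths.

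The other 5 ratios overlapped between groups. Per1 to Arntl differed by 0.40 between group means (GFAP-IL6 minus WT), with an SD of 0.37 in WT and 0.35 in GFAP-IL6. Per3 differed by 0.14, Clock by -0.14, Nr1d1 by -0.09 and Cry2 by -0.01. By the same exact permutation test the p of these 5 ranged from 0.2 to 0.9. Without WT replicate 2 the difference was 0.19 for Per1, 0.20 for Per2 and 0.06 for Per3, and for Per1 it was 0.24 without GFAP-IL6 replicate 1. Without GFAP-IL6 replicate 3 it was -0.18 for Cry1.

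With Clock in place of Arntl as the reference, 3 of 9 ratios did not overlap (Per2, Per3 and Dbp), beside 19.5% for the ratio of any tested gene to Clock. The ratio of Dbp to Clock was 1.52, 1.69 and 1.67 in WT and 1.38, 1.37 and 0.90 in GFAP-IL6. The ratios of Cry1 and Nr1d2 overlapped against this reference, with differences of -0.16 and -0.14 between group means.

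**Figure D4:**
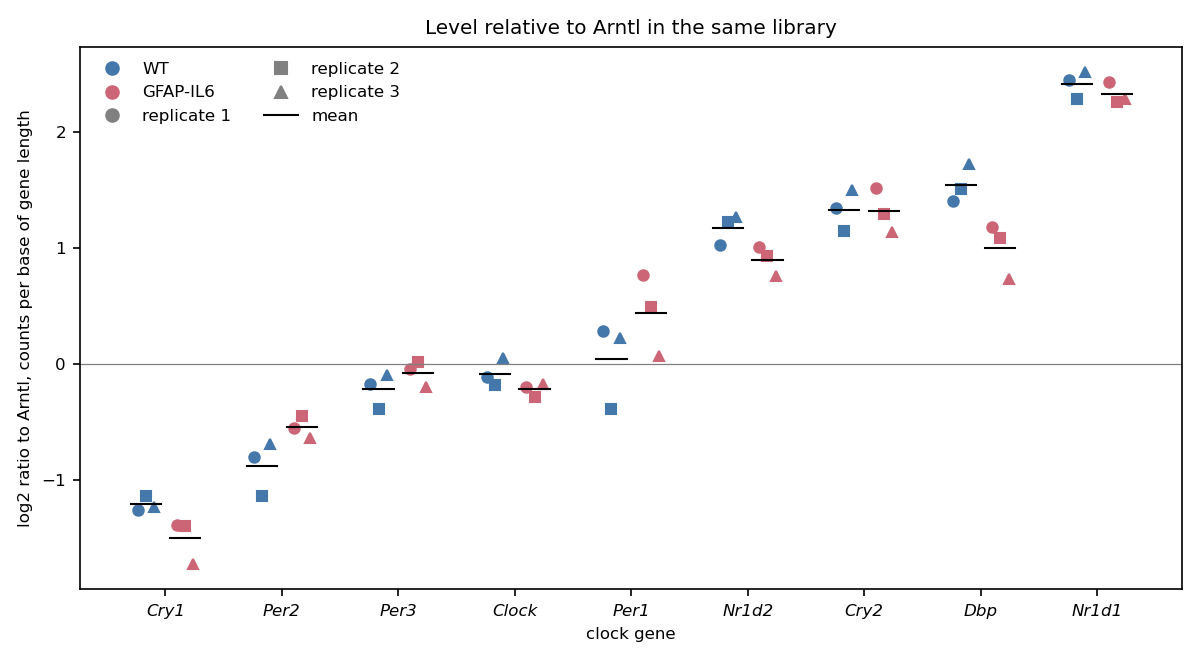
Log2 ratio of 9 clock genes to Arntl in the same library, from counts per base of gene length, for 3 WT and 3 GFAP-IL6 mice. Symbols mark the replicate number and lines the group mean, and genes are in order of the WT mean. Dbp lies between 1.41 and 1.72 in WT and between 0.74 and 1.18 in GFAP-IL6, and the mean of Per2 is -0.88 in WT and -0.54 in GFAP-IL6.

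Dbp and the Per genes, which peak within the same part of the day, were set against each other after these values were seen, with no test. The log2 ratio of Per2 to Dbp per base was -2.21, -2.64 and -2.41 in WT and -1.73, -1.53 and -1.37 in GFAP-IL6. Every GFAP-IL6 mouse was above every WT mouse, with a difference of 0.88 between the group means. The difference was 0.95 for Per1 to Dbp and 0.69 for Per3 to Dbp, both without overlap. Nr1d1, with a log2 fold change of 0.00, also did not overlap relative to Dbp, with a difference of 0.45. Dbp alone already separated the groups in CPM. The share of all genes whose ratio to Dbp does not overlap was not computed. The ratio of Per1 to Per2 was 0.92 ± 0.17 in WT and 0.99 ± 0.31 in GFAP-IL6 and overlapped. Nr1d1 to Nr1d2 and Cry1 to Cry2 overlapped as well, at 1.24 ± 0.18 and -2.54 ± 0.23 in WT and 1.42 ± 0.10 and -2.82 ± 0.12 in GFAP-IL6.

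Levels between genes were compared in TPM, the count per base of gene length scaled to the same total in each library. The order of genes depends on the deposited lengths, which differ from the exon bases in GENCODE M21. These were 2904 and 7523 bases for Arntl, 1789 and 2993 for Dbp and 4342 and 6320 for Cry2. Nr1d1 was the most abundant of the 10 in all 6 libraries, at 193 ± 26.1 TPM in WT and 203 ± 4.94 in GFAP-IL6. Cry1 was the least abundant in all 6, at 15.5 ± 1.42 and 14.3 ± 1.54 TPM, and Per2 was next to it in all 6, at 19.8 ± 3.69 and 27.7 ± 2.12 TPM. The order of Dbp and Cry2 differed between groups. Dbp was second in all 3 WT mice, at 105 ± 5.38 TPM against 90.7 ± 12.8 for Cry2, with ranges that overlapped. Cry2 was second in all 3 GFAP-IL6 mice, at 101 ± 9.01 TPM against 81.2 ± 10.1 for Dbp, with ranges that did not overlap. Nr1d2 held rank 3 or 4 in all 6, at 80.9 ± 1.37 and 75.5 ± 4.28 TPM, and its range overlapped that of Cry2 in WT and that of Dbp in GFAP-IL6. Per1, Arntl, Per3 and Clock lay between 26.6 and 65.2 TPM in all libraries, and Arntl, Per3 and Clock changed places from mouse to mouse. Per1 held rank 8 in WT replicate 2 and rank 5 in every other library.

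The rest of the pathway was read from a list of 21 other clock genes. By edgeR, 0 of the 21 had an adjusted p under 0.05, as with DESeq2 and limma-voom, while 8 had an unadjusted p under 0.05 and 8 did not overlap in CPM, beside the 20.5% and 26.5% of all genes given above. The estimates were positive for 7 and negative for 14, beside 7573 and 7768 of all 15341 genes tested. The median log2 fold change of the 21 was -0.08.

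Rorb, an orphan receptor of cortical neurons, was at 50.8, 42.9 and 56.0 CPM in WT and at 42.6, 40.3 and 35.1 in GFAP-IL6. It was called by edgeR in 2 alternatives, without WT replicate 2 (log2 fold change -0.44, adjusted p of 0.0129) and without the filter on low counts (adjusted p of 0.0352). Over all genes these 2 alternatives called 508 and 1154. With all libraries and the filter, Rorb had a log2 fold change of -0.34 and an adjusted p of 0.126. Npas2, a relative of Clock, was at 47.7, 47.7 and 45.3 CPM in WT and at 55.2, 53.4 and 52.4 in GFAP-IL6, and its adjusted p was 0.190 by edgeR. Arntl2, a relative of Arntl, was at 13.5 ± 0.467 CPM in WT and 16.4 ± 1.77 in GFAP-IL6. Both were higher in each GFAP-IL6 mouse without passing the test, as was Timeless, which acts in DNA replication, at 4.39 to 6.01 CPM in WT and 6.59 to 8.87 in GFAP-IL6. Bhlhe41, a repressor that competes at E-boxes, was at 39.8 ± 1.19 CPM in WT and 34.4 ± 2.74 in GFAP-IL6, with an adjusted p of 0.211.

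The summed levels of microglial, endothelial and inhibitory neuron markers separated the groups, while those of astrocyte, oligodendrocyte and blood genes overlapped. In bulk tissue, fewer cells of a type and less RNA per cell cannot be told apart. Among all 15341 genes tested, 407 were called as higher and 32 as lower by edgeR, and 7768 had negative log2 fold changes. Of 6 microglial markers 5 were called as higher, and the summed level of the 6 was 253 to 303 CPM in WT and 529 to 623 in GFAP-IL6. The remaining marker, P2ry12, had a log2 fold change of -0.27 and was not called. Of 6 endothelial markers 3 were called as higher, with sums of 111 to 133 and 184 to 218 CPM. Of 6 astrocyte markers only Gfap was called, with sums of 4346 to 5530 and 5347 to 6481 CPM. The 6 markers of inhibitory neurons all had negative estimates and none was called. By edgeR 5 of the 6 had an unadjusted p under 0.05, beside 20.5% of all genes. In CPM 3 of the 6 did not overlap, beside 26.5% of all genes. The sums of the 6 were 952 to 997 CPM in WT and 783 to 860 in GFAP-IL6 and did not overlap. Oligodendrocyte sums were 3225 to 5940 CPM in WT and 3246 to 5068 in GFAP-IL6, and those of blood genes 30.5 to 39.5 and 26.0 to 35.7. The part of these markers in the level of Dbp was not tested.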

How the data were processed

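Frontal cortex RNA of 3 WT and 3 GFAP-IL6 mice was analysed. The authors deposited raw counts per gene. The methods of the study state alignment to mm10 with STAR (version 2.4) and counting with featureCounts over GENCODE genes. They do not state whether counting used the strand. The submitters' processing notes name hg19, but the gene identifiers are those of mouse. Groups and replicate numbers came from sample titles. The table has 0 rows without a gene name, and 32593 of 33000 identifiers matched GENCODE M21, used for positions and exon overlap. The match ignored the version number. Identifiers are printed with their deposited version, while the positions are those of M21, where the version can differ.

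Counts were tested with edgeR 4.0.16 (R 4.3.3; quasi-likelihood F-test, TMM scaling, filterByExpr, Benjamini-Hochberg over 15341 genes; called at an adjusted p under 0.05). SEs and 95% intervals were derived from the F statistic. DESeq2 1.42.0 and limma-voom 3.58.1 were alternatives, beside other scalings, filters, thinning, a replicate block and each library left out. Ratios used 0.5 added to each count. Fits were tested on simulated data. No pair of libraries agreed within sampling noise (chi-square per degree of freedom 2.23 to 20.1). The deposited gene length in bases was used for TPM and ratios. The smallest library gives a floor of 0.397 CPM for 3 counts, for counting error only.

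The members and lists were chosen with earlier results of these data known. All members were named. Of the 21 other clock genes, those past the threshold and the 6 others with the smallest unadjusted p were named, beside genes whose exons overlap a member. Of these, 1 gene is not reported here. Marker lists are given by counts and ranges.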

Additional observations from a re-analysis of the deposited data

How the results depend on the processing

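The number of clock genes called by edgeR was 3 without the filter on low counts and 0 to 3 when 1 of the 6 libraries was omitted, with 3 only without WT replicate 1. It was 1 with DESeq2, limma-voom, DESeq2 size factors, library totals alone, a mean CPM of at least 1, thinning to the smallest library and the replicate block. The fits with 3 called 1154 of all genes without the filter and 1061 of 15524 without WT replicate 1. The main fit called 439 of 15341, and the fits with 0 called 187 to 346 of all genes. The share of all genes was not computed without the filter. Dbp was lower in all 14 alternatives and past the threshold in 10, with log2 fold changes from -0.49 to -0.34. Per1 and Per2 were higher in all 14 and past the threshold in 2 each. The sign of Nr1d1 was kept in 8 of 14 and that of Clock in 12, with 0 calls for either.

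Of the 21 other clock genes, 1 was called without the filter and 0 to 1 in the fits without one library. Over all genes, 439 were called, 1154 without the filter, 187 to 1061 without one library (lowest without GFAP-IL6 replicate 3 and highest without WT replicate 1) and 750 with the replicate block. Il6 did not pass a mean CPM of at least 1, so the check of the genotype then rested on 1 gene. The number of the 9 ratios to Arntl whose groups did not overlap was 4 to 7 without one library. It was 7 without GFAP-IL6 replicate 3 (beside 23.7% of all genes under that setting), 6 without WT replicate 2 (24.0%) and 4 in the others (26.3% to 47.5%). Under the replicate block, 6 of 9 had one sign in all 3 same-numbered pairs, beside 30.1% of all genes. The labels do not say whether same-numbered libraries shared more than a number. The deviations of same-numbered libraries from the group means had correlations of 0.12, 0.02 and 0.05 across genes. Between libraries with different numbers the correlations ranged from -0.099 to 0.051, and not every library correlated best with its own number. The replicate block changed no call for a clock gene. The causes of these changes were not tested.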

Other observations

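The clock genes differed in how much mice of one group varied. The within-group SD on the log2 CPM scale was 0.35 for Per1, larger than for 88.4% of the genes tested, and 0.19 for Per2, larger than for 64.4%. It was 0.07 for Nr1d2, 0.10 for Clock and 0.11 for both Arntl and Nr1d1, larger than for 8.85%, 23.8%, 28.4% and 30.2% of genes. The highest WT mouse was above the lowest by a factor of 1.74 for Per1 and 1.07 for Dbp, and the factors in GFAP-IL6 were 1.46 and 1.26. The SD of a gene depends on its depth, and these shares are over all genes tested at any level.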
